A study of Homo sapiens with 6 samples.

Results

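The genes described here are 10 transcription factor genes that drive T-cell acute lymphoblastic leukaemia (T-ALL) when they are mis-expressed or mutated: TAL1, LYL1, LMO1, LMO2, TLX1, TLX3, NKX2-1, GATA3, RUNX1 and MYB. They were taken from the deposited table by gene symbol, and each of the 10 had 1 probe set among the 21448 of the array (17687 named genes). RNA came from Jurkat cells, an established human T-ALL line, and was measured on 6 Affymetrix arrays. All cells were grown with 10% serum and then kept in serum-free medium for 90 min. The untreated group (3 arrays) received nothing further, and the CXCL12 group (3 arrays) received the chemokine CXCL12 at 100 ng/ml for 15 min. The comparison asks which transcripts differ after this stimulation. The titles call the samples biological replicates but do not say whether they were separate cultures, so the p-values reflect only how these samples vary, and part of that variation may be technical. All 6 come from a single cell line, so they show nothing of how other T-ALL cells behave.

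T-ALL falls into subtypes that are named after the factor switched on in the leukaemic thymocyte. TAL1 and its relative LYL1 are basic helix-loop-helix proteins that pair with E proteins such as TCF3 and TCF12 on E-box sequences. LMO1 and LMO2 do not bind DNA and act as bridges from that pair to LDB1 and to GATA factors. In TAL1-positive cells, the group to which Jurkat is known to belong, TAL1 shares many binding sites with GATA3, RUNX1 and MYB. TLX1, TLX3 and NKX2-1 are homeodomain proteins that are normally silent in T cells and mark other subtypes.

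The promoters of 9 of the 10 genes could be read from RefSeq (build GRCh38.p14), as the 250 bases upstream of the first start listed for each gene. The GATA motif GATAA, searched on both strands, was present in 3 of these 9 promoters (TAL1, LYL1 and TLX3), against 21% of 27305 promoters of the same length. These 3 are shown because GATA3 is a partner of TAL1, and because they belong to genes with very different signals on the arrays. Each is written 5′ to 3′ on the strand of its gene, and capitals mark GATAA or its reverse complement TTATC. They lie at chr1:47232336-47232585 (minus strand), chr19:13102859-13103108 (minus strand) and chr5:171308998-171309247 (plus strand).
TAL1: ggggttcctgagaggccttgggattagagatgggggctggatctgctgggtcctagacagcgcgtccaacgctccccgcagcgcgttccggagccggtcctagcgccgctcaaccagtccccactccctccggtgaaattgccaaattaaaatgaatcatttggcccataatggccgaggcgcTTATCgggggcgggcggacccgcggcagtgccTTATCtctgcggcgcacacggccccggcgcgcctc
LYL1: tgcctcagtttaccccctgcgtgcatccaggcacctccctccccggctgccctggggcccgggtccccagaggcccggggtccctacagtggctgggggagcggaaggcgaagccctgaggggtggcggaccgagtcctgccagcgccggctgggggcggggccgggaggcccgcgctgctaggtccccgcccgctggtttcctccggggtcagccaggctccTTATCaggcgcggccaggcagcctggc
TLX3: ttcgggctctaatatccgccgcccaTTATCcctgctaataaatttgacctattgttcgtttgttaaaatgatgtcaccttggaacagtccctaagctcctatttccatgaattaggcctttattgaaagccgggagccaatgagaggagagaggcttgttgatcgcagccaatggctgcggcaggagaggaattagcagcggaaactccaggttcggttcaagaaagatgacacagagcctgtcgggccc
The TAL1 window held 2 matches and the other windows 1 each. The RUNX motif TGTGGT was in 0 of the 9 promoters, against 10.9% of all, and the MYB motif AACNG in 6 of 9, against 70.6%. The E-box CAGNTG was in 1 of 9 (TLX1), against 42.5%. Such matches describe the letters of these windows and say nothing of binding in Jurkat cells.

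The array values are RMA signals on a log2 scale. Each probe set has its own binding strength, so the order of signals between genes is only a rough guide to transcript amounts. Without detection calls, 23 genes of other organs (such as those for albumin, surfactant protein and prolactin) served as a guide to the signal of silent genes. Their means ran from 2.78 to 6.21. This guide has limits, since 6 of 21 markers of B, erythroid and myeloid cells lay above it, led by CD79A at 7.92, BLK at 7.63 and HBA1 at 7.46. The T cell markers fitted the cell line: 11 of 11 lay between 8.26 and 11.4, with the kinase gene LCK highest. Median signals per array ran from 6.18 to 6.22. Untreated replicate 1 stood apart from the other arrays, with a mean correlation to them of 0.982 against 0.987 to 0.989, so a number of the values are also given without it.

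The signals of the 10 genes fell into 3 ranges. MYB (10.98), RUNX1 (10.89) and TAL1 (9.26), as means of 6 arrays, lay above the lowest T cell marker, and GATA3 (8.17) just below it. LMO1 (7.01), NKX2-1 (6.52) and LYL1 (6.38) lay above every gene of other organs but within the range of the B and erythroid markers. TLX1 (5.21), TLX3 (5.15) and LMO2 (5.12) lay inside the range of the genes of other organs. In this order, the arrays of MYB and RUNX1 overlapped, as did those of NKX2-1 and LYL1 and those of TLX1, TLX3 and LMO2. By these values alone, expression of LMO1, NKX2-1 and LYL1 could not be told from probe background, and for TLX1, TLX3 and LMO2 no signal beyond that of silent genes was detected.

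**Figure D1:**
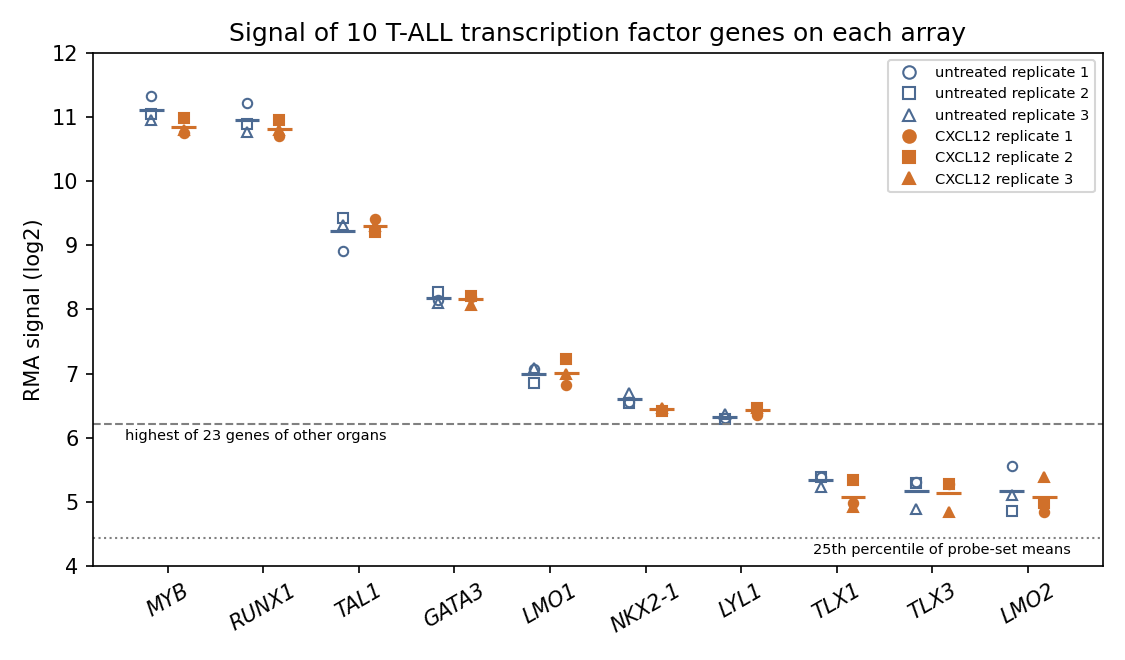
RMA signal (log2) of each gene on each of the 6 arrays, with open blue symbols for untreated and filled orange symbols for CXCL12 replicates; short bars are group means of 3 arrays, the dashed line is the highest of 23 genes of other organs (6.21) and the dotted line the 25th percentile of all probe-set means (4.44). TLX1, TLX3 and LMO2 lie under the dashed line on every array, and the groups overlap for each gene except NKX2-1.

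**Figure D2:**
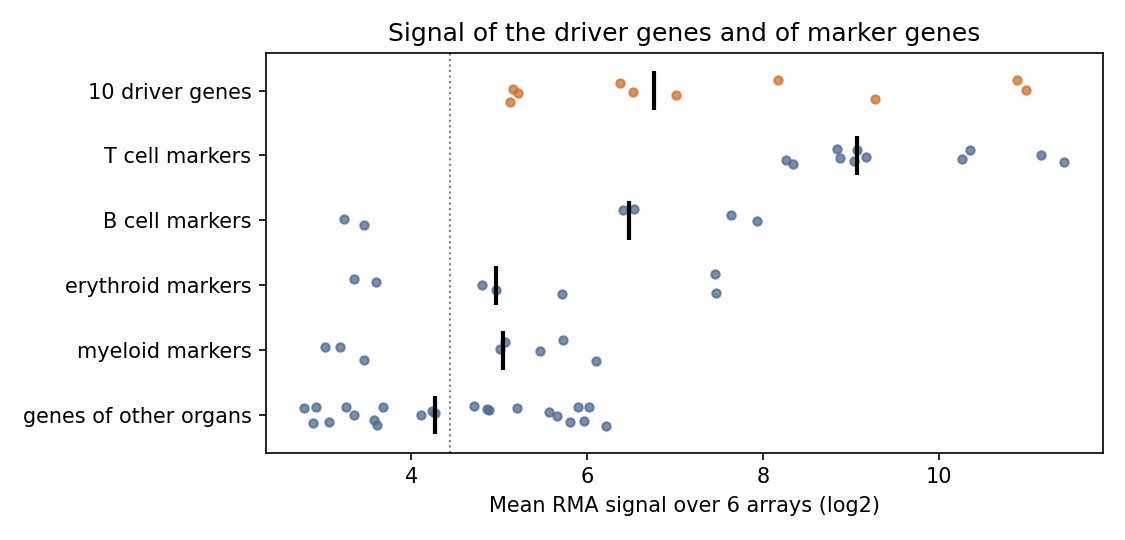
Mean RMA signal (log2, 6 arrays) of the 10 driver genes and of the genes of each marker list, 1 point per gene, with the list median as a bar and the 25th percentile of all probe-set means as a dotted line. T cell markers lie from 8.26 to 11.4, and B cell and erythroid markers reach 7.92 and 7.46.

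None of the 10 genes changed detectably 15 min after CXCL12. In the limma fit over 16086 probe sets, 0 of 10 passed an adjusted p of 0.05, with adjusted p from 0.996 to 0.999, against 0.0124% of all probe sets (2 of 16086, both higher with CXCL12). At an unadjusted p under 0.05 there were also 0 of 10, against 4.73% of all. The differences, CXCL12 minus untreated on the log2 scale, ran from -0.27 for MYB to 0.10 for LYL1. There were 3 positive and 7 negative differences with a median of -0.07, beside a median of 0.00 over all probe sets tested. For 10 of 10 genes the 95% interval excluded a change of 1.5-fold or more in either direction, against 89.9% of all probe sets. Changes of that size in these signals thus fell outside the intervals, while smaller ones were not resolved. For LMO1, NKX2-1, LYL1, TLX1, TLX3 and LMO2, whose levels were not told from background, the intervals bound the probe signal and not transcript amounts. In bulk RNA of 1 cell line, a difference in some of the cells and a smaller one in all of them cannot be told apart.

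**Figure D3:**
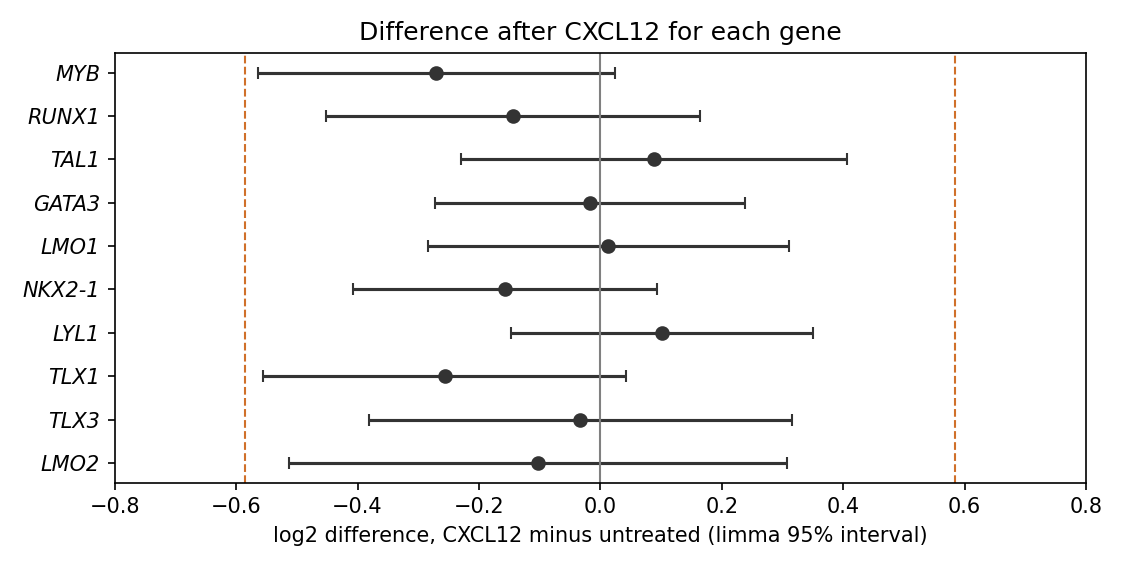
Difference in RMA signal (log2, CXCL12 minus untreated) for each gene with its limma 95% interval (3 arrays per group), in the order of mean signal; dashed lines mark a 1.5-fold change in either direction. Every interval includes 0 and lies between the dashed lines.

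TAL1, the factor that defines the subtype, had log2 signals of 8.92, 9.43 and 9.31 in untreated replicates 1, 2 and 3 and of 9.41, 9.21 and 9.31 in CXCL12 replicates 1, 2 and 3. Untreated replicate 1 was the low array and untreated replicate 2 the high one, and the CXCL12 arrays lay between them. The group means were 9.22 ± 0.27 and 9.31 ± 0.10 (SD, n = 3 each), a difference of 0.09 (SE 0.15, 95% interval -0.23 to 0.41, limma adjusted p = 0.996). Without untreated replicate 1 the sign turned, to -0.06. Its signal stood at the 91.9th percentile of all probe sets.

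LYL1, the closest relative of TAL1 among these genes, was the member with the largest positive difference. Its signals were 6.31, 6.29 and 6.37 in untreated and 6.35, 6.46 and 6.47 in CXCL12 replicates 1, 2 and 3. All 3 CXCL12 arrays exceeded the untreated mean, but CXCL12 replicate 1 lay below untreated replicate 3, so the groups overlapped. The difference was 0.10 (SE 0.11, 95% interval -0.15 to 0.35, limma adjusted p = 0.996), and it was 0.08 to 0.14 with each array left out in turn.

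The LIM-only genes overlapped between the groups. LMO1, the partner often switched on together with TAL1, had 7.07, 6.85 and 7.08 in untreated and 6.83, 7.22 and 6.99 in CXCL12 replicates 1, 2 and 3. The CXCL12 arrays held both its highest and its lowest value, and the difference was 0.01 (95% interval -0.28 to 0.31). LMO2, which takes the same bridging place in other T-ALLs and in blood stem cells, had 5.56, 4.86 and 5.10 in untreated and 4.84, 4.99 and 5.39 in CXCL12 replicates 1, 2 and 3. Its arrays spread over 0.725 log2 units between the highest and lowest, the widest spread of the 10 genes, and its difference of -0.10 (95% interval -0.51 to 0.31) became 0.09 without untreated replicate 1.

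GATA3, a zinc-finger factor needed for T cell development, was the steadiest of the brighter genes. Its signals were 8.15, 8.27 and 8.11 in untreated and 8.19, 8.21 and 8.07 in CXCL12 replicates 1, 2 and 3. The means were 8.18 ± 0.08 and 8.16 ± 0.08 (SD, n = 3 each), a difference of -0.02 (95% interval -0.27 to 0.24, limma adjusted p = 0.996). Its values thus agree within the spread of either group.

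RUNX1, which binds DNA together with CBFB, had 11.21, 10.90 and 10.76 in untreated and 10.70, 10.95 and 10.80 in CXCL12 replicates 1, 2 and 3. The highest array was untreated replicate 1, and without it the difference of -0.14 (SE 0.14, 95% interval -0.45 to 0.16) shrank to -0.02. MYB, a factor of blood progenitors and of many T-ALLs, had 11.33, 11.06 and 10.96 in untreated and 10.75, 10.99 and 10.80 in CXCL12 replicates 1, 2 and 3. All 3 CXCL12 arrays lay below the untreated mean, but CXCL12 replicate 2 exceeded untreated replicate 3. MYB had the largest difference of the 10 genes, -0.27 (SE 0.14, 95% interval -0.56 to 0.02), or 0.829 times the untreated signal (limma adjusted p = 0.996). Leaving out untreated replicate 1 gave -0.16, and leaving out untreated replicate 3 gave -0.35. Untreated replicate 1, the array that stood apart over all probe sets, was the highest array for MYB, RUNX1, LMO2, TLX1 and TLX3 and the lowest for TAL1, and its part in these differences was measured only by leaving it out.

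The homeobox genes of other subtypes had low signals. TLX1 had 5.39, 5.39 and 5.23 in untreated and 4.99, 5.34 and 4.92 in CXCL12 replicates 1, 2 and 3. CXCL12 replicates 1 and 3 lay below every untreated array and replicate 2 did not. The difference was -0.26 (SE 0.14, 95% interval -0.56 to 0.04, limma adjusted p = 0.996), at a level where silent genes also lie, and it was -0.38 without CXCL12 replicate 2 and -0.18 without CXCL12 replicate 3. TLX3 had 5.32, 5.30 and 4.89 in untreated and 5.29, 5.28 and 4.85 in CXCL12 replicates 1, 2 and 3. The third replicate was the low one in either group, and the difference was -0.03 (95% interval -0.38 to 0.32), or 0.04 without untreated replicate 1.

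NKX2-1, known from lung and thyroid, was the member whose groups did not overlap. It had 6.56, 6.54 and 6.69 in untreated and 6.44, 6.42 and 6.46 in CXCL12 replicates 1, 2 and 3. Every CXCL12 array lay below every untreated array, by a margin of 0.0715 log2 units between the nearest arrays. The difference was small, -0.16 (SE 0.12, 95% interval -0.41 to 0.09, limma adjusted p = 0.996). That 1 of 10 genes showed no overlap is close to the 9.54% of all probe sets tested.

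**Figure D4:**
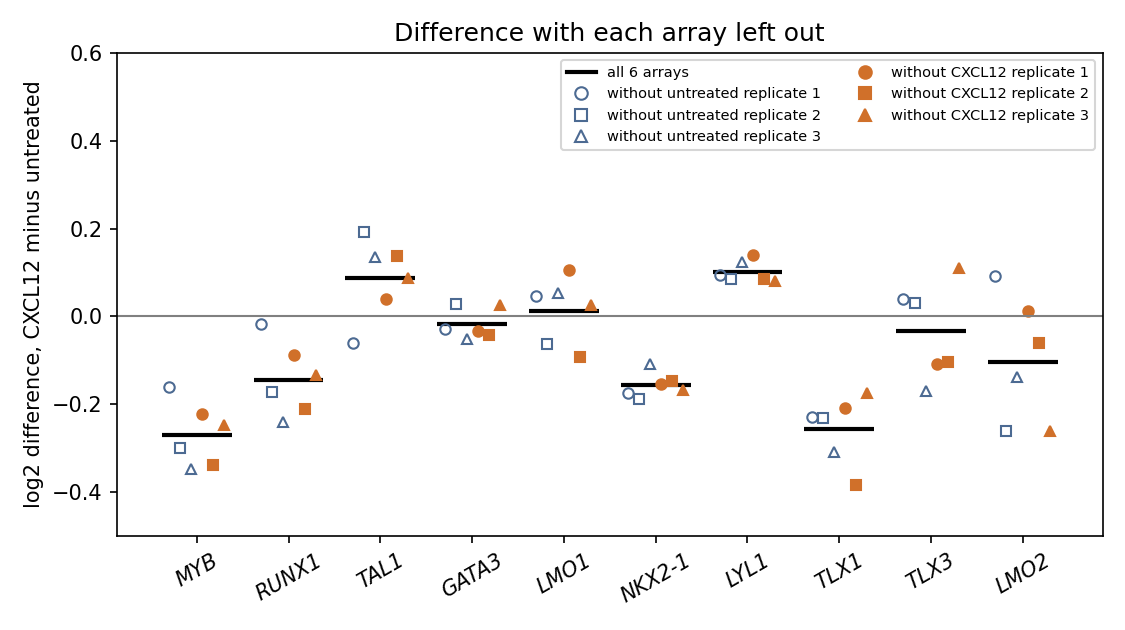
Difference in RMA signal (log2, CXCL12 minus untreated) of each gene with all 6 arrays (black bar) and with each array left out in turn (open symbols for untreated, filled for CXCL12 arrays). MYB, RUNX1, NKX2-1 and TLX1 stay below 0 and LYL1 above 0 in these fits, while the sign turns for TAL1, GATA3, LMO1, TLX3 and LMO2.

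The pattern most like that of TAL1 over the 6 arrays, measured as the root mean square difference of values minus each gene's own mean, belonged to FAH (0.0125 log2 units), TRAPPC10 (0.0207) and COPG1 (0.0220) among 13454 named genes, with a median of 0.216 over all of them. The other 9 driver genes lay at 0.168 (GATA3) to 0.417 (LMO2) from TAL1. With 6 arrays of which 1 stands apart, such likeness is a description of these arrays.

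The partners of TAL1 did not pass the test. Of 18 listed partners and cofactors 16 were named, and all 16 were tested, with levels from 6.29 (RCOR1), near the highest gene of other organs, to 10.8 (SSBP2). There were 5 positive and 11 negative differences (median -0.06), 0 passed in either direction, and 0 had an unadjusted p under 0.05. TCF3 and TCF12, the E proteins that pair with TAL1, had differences of -0.03 (95% interval -0.31 to 0.25) and 0.02 (-0.24 to 0.28) at levels of 8.64 and 10.10. CBFB, the partner of RUNX1, had 0.09 (-0.16 to 0.35). The largest difference belonged to LDB1, the scaffold that LMO proteins bind, with 10.33, 10.19 and 9.96 in untreated and 9.86, 10.00 and 9.90 in CXCL12 replicates 1, 2 and 3, a difference of -0.24 (95% interval -0.52 to 0.04, limma adjusted p = 0.996). Untreated replicate 1 was again the highest array, and without it the LDB1 difference was -0.15. SSBP3, which binds LDB1, had -0.17, and TCF4, a further E protein, -0.18.

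Genes reported to be bound or regulated by TAL1 in T-ALL, a list that also holds STIL, its partner in a common deletion, gave 12 tested genes of 14 named. RAG2 and KIT were left out as dim. There were 5 positive and 7 negative differences (median -0.02), 0 passed, and 2 had an unadjusted p under 0.05, both lower with CXCL12. Of all 16086 probe sets, 761 (4.73%) were under 0.05, 438 higher with CXCL12 and 323 lower. ETV6, an ETS-family repressor, had 6.95, 6.85 and 6.50 in untreated and 6.10, 6.62 and 6.12 in CXCL12 replicates 1, 2 and 3, a difference of -0.48 (95% interval -0.85 to -0.12, limma adjusted p = 0.996). CXCL12 replicate 2 lay inside the untreated range. The ETV6 difference was -0.39 without untreated replicate 1 and -0.65 without CXCL12 replicate 2. Its unadjusted limma p was 0.061 without CXCL12 replicate 1 and 0.062 without CXCL12 replicate 3. The mean signal of ETV6, 6.52, lay within the range of the B and erythroid markers. ARID5B, a DNA-binding cofactor gene, had 9.38, 9.04 and 8.94 in untreated and 8.50, 8.999 and 8.78 in CXCL12 replicates 1, 2 and 3. Its difference of -0.36 (95% interval -0.71 to -0.02, limma adjusted p = 0.996) was -0.23 without untreated replicate 1 and also without CXCL12 replicate 1. TRIB2, a pseudokinase gene, had 0.25 (95% interval -0.13 to 0.64), with CXCL12 replicate 3 at 6.80 and its other arrays between 6.02 and 6.18. Its mean of 6.21 lay at the level of the highest gene of other organs.

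Of 23 other transcription factors and regulators linked to T-ALL, 17 were named and 13 tested, and no probe set was named here for HOXA5, HOXA7, HOXA9, HOXA10, HOXA11 or HOXA13. There were 5 positive and 8 negative differences (median -0.04), and 0 passed. Of the 13 tested, 3 had an unadjusted p under 0.05, all lower: ETV6, KMT2A and MYC. The share of all probe sets was 4.73%, in either direction. ETV6 was already counted among the TAL1 targets. KMT2A, a histone methyltransferase gene, had 8.72, 8.49 and 8.38 in untreated and 8.11, 8.25 and 8.23 in CXCL12 replicates 1, 2 and 3. Its groups did not overlap, and the difference was -0.34 (95% interval -0.62 to -0.06, limma adjusted p = 0.996), or -0.24 without untreated replicate 1. MYC, a target of many T-ALL factors, had 9.70, 9.60 and 9.53 against 9.42, 9.25 and 9.27, also without overlap, a difference of -0.30 (limma adjusted p = 0.996), or -0.26 without untreated replicate 1. Without that array, neither KMT2A nor MYC kept an unadjusted limma p under 0.05. Groups without overlap were found for 9.54% of all probe sets tested. TAL2, MEF2C, OLIG2 and MYCN were left out as dim, with MEF2C, a driver of immature T-ALL, at 2.74 ± 0.06 in the untreated group and 2.96 ± 0.22 in the CXCL12 group (SD, n = 3 each).

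The closest relatives of the 10 genes included the largest positive difference among the listed genes. All 21 were named and 18 tested, with 11 positive and 7 negative differences (median 0.04) and 0 passing. An unadjusted p under 0.05 was found for 2 of the 18, 1 in each direction, beside 4.73% of all probe sets. RUNX2, a relative of RUNX1 known from bone, had 8.84, 8.71 and 8.57 in untreated and 9.04, 9.07 and 9.11 in CXCL12 replicates 1, 2 and 3. Every CXCL12 array lay above every untreated array, and the difference was 0.37 (SE 0.12, 95% interval 0.11 to 0.63, limma adjusted p = 0.996). Leaving out untreated replicate 3 gave 0.30, and leaving out untreated replicate 1 gave 0.44. MYBL1, a relative of MYB, had 4.99, 5.25 and 5.23 against 4.76, 4.81 and 4.99, a difference of -0.30 (95% interval -0.58 to -0.02). Its mean of 5.01 lay inside the range of the genes of other organs. Its groups did not overlap, though the nearest arrays were at 4.994 and 4.992. NKX2-8, a relative of NKX2-1, had -0.23 (95% interval -0.51 to 0.04), also without overlap. Its mean of 6.43 lay within the range of the B and erythroid markers. LMO4, GATA2 and RUNX3 had -0.10, 0.11 and 0.08, each with an interval that included 0. For RUNX1 the interval around its difference of -0.14 included 0 (-0.45 to 0.16), so its sign was not settled. Whether RUNX2 and RUNX1 differed in their response was not tested.

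Over the 4 lists together, with each gene counted once, 54 genes were tested and 0 passed. An unadjusted p under 0.05 was reached by 6 of these 54, against 4.73% of all probe sets (761 of 16086). Under median centring it was 7 (745 of 16086 probe sets). Without a dim filter, where dim list genes were tested too, it was also 7 (999 of 21448 probe sets). When single arrays were left out it was 3 to 5 (3 without untreated replicate 1 or 2 or CXCL12 replicate 1). Those fits had 548 to 1014 of 16086 probe sets under 0.05. The groups did not overlap for 7 of the 54, against 9.54% of all.

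**Figure D5:**
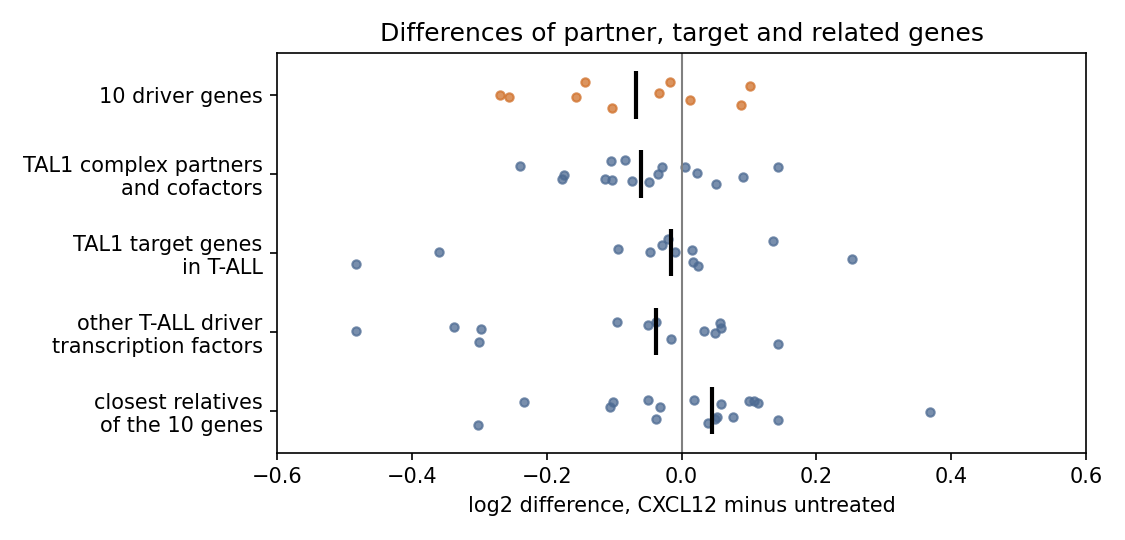
Difference in RMA signal (log2, CXCL12 minus untreated) of the 10 driver genes and of the tested genes in each list of partners, targets, other drivers and relatives, 1 point per gene, with the list median as a bar; ETV6 stands in 2 lists. The medians lie between -0.07 and 0.04, with ETV6 (-0.48) and RUNX2 (0.37) farthest from 0.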

How the data were processed

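RNA from 6 Jurkat samples (3 untreated, 3 CXCL12) was measured on 1 array each. The deposited values are log2 signals per probe set, made with RMA (background correction, normalization between arrays, then 1 summary per probe set) and the Transcriptome Analysis Console, per the submitters' processing notes. Settings, versions and genome build: not given in the sources used here. Scanner files, and with them detection calls and scan batches, were not used here. Sorted values of the arrays differed by up to 0.29.

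Symbols came from the platform annotation (17709 probe sets with 1 symbol, 0 with several, 3739 unnamed). A mean below the 25th percentile (log2 4.44) counted as dim, and the other 16086 probe sets entered a two-sided limma fit (lmFit and eBayes without covariates, limma 3.58.1, R 4.3.3), with Benjamini-Hochberg adjustment over all of them and 0.05 as the threshold. The fit was tested on simulated data. The precision is limited by the number of arrays.

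The 10 genes and all lists were chosen with earlier results of these data known. Named list genes are the 3 with the smallest p of each list, and TCF3, TCF12, LDB1, CBFB, LMO4, GATA2, RUNX3, MYC, HOXA9 and MEF2C. The choice of RCOR1, SSBP2 and the markers to name followed a look at their values. The alternatives varied the dim filter, the normalization, the threshold, the prior, the array weights, a block for replicate number, the summary of a symbol's probe sets, the limit for low signal and the arrays included.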

Additional observations from a re-analysis of the deposited data

How the results depend on the processing

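In none of the 15 alternative fits did any of the 10 genes or any gene of the 4 lists pass its threshold, and the lowest adjusted p of a driver gene was 0.762 (TLX1 without CXCL12 replicate 2). MYB reached an unadjusted limma p under 0.05 with the trended robust prior (0.0269), without untreated replicate 3 (0.0424) and without CXCL12 replicate 2 (0.0441). TLX1 did so without CXCL12 replicate 2 (0.0152). Of all 16086 probe sets, 686 were under 0.05 with the trended robust prior and 810 without untreated replicate 3. Without CXCL12 replicate 2 it was 1014, beside 761 in the main fit. Over all probe sets, in place of 2 there passed 1 without a dim filter, 1 under cyclic loess and 1 under median centring. Passing probe sets numbered 3 with the lower 50% left out, 3 with the trended robust prior and 4 under array weights. There were 34 at an unadjusted p with a 1.5-fold change, and 1 to 2 with each array left out. Of 147 differences of single genes under alternatives, 13 turned sign, none past the threshold. These were LMO1 with median centring (-0.00823) and array weights (-0.0276), TLX3 with array weights (0.0389), and the others with an array left out. Part of the 147 could not turn. The dim filter, the prior, the replicate block and the summary of probe sets leave the difference itself unchanged in this design. With each array left out, LMO1 ran from -0.0919 to 0.106, LMO2 from -0.262 to 0.0913, TLX3 from -0.171 to 0.111, GATA3 from -0.0510 to 0.0288 and TAL1 from -0.0616 to 0.192. The causes of these turns were not tested beyond the arrays named. Leaving out the lower 50% of probe sets removed TLX1, TLX3 and LMO2, and the mean of a symbol's probe sets changed nothing, since each of the 10 genes has 1. At the median of all probe-set means, or at the 90th percentile or the highest of the genes of other organs, 7 of the 10 genes lay above the limit, in place of 10. Replicate numbers are not stated to be pairs, and arrays that share a number deviated from their group means with correlations of -0.19, -0.11 and 0.11. The replicate block gave 0 of the 10 genes and 2 probe sets. No scaling moved the median difference of all probe sets beyond -0.02. Half-widths of the 95% intervals had a median of 0.29 log2 units, which limits what can be seen.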
